A study of Homo sapiens with 16 samples.

Results

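The comparison described here set HCT116 cells treated with siMYBL2 against HCT116 cells treated with siCtrl, 4 of the 16 libraries of the series, and covers every gene that the authors' table of this comparison lists. HCT116 is a human colorectal carcinoma line. The siMYBL2 group holds 2 libraries from cells that received small interfering RNA (siRNA) against MYBL2, and the siCtrl group holds 2 libraries from cells that received a non-targeting siRNA. RNA was taken 48 hours after treatment in both groups, and the series' text calls the libraries biological replicates of total RNA sequenced in pairs. Of the rest of the series, siMYBL2 against siCtrl in U2OS, a human osteosarcoma line, is used as a comparison with libraries of its own. HCT116 siMYBL1 and the HCT116 double knockdown (both siRNAs together) are set beside it for single values, and these use the same 2 siCtrl libraries. An siRNA lowers its target without removing it. No source used here gives the sequence or the number of the siRNAs.

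MYBL2, also called B-MYB, is a transcription factor that rises as cells enter S phase. It binds the MuvB complex, and the pair then helps FOXM1 to activate genes needed for G2 and mitosis, among them cyclin B, kinesins and kinetochore proteins. Many of these genes carry a cell cycle homology region (CHR) in the promoter, to which MuvB binds through LIN54, and a CCAAT box, which NF-Y binds. MYBL1 (A-MYB) and MYB (c-MYB) are its relatives.

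The target itself fell. MYBL2, at chr20:43667019-43716495 of hg38 on the forward strand, had a base mean of 1380 normalized counts, averaged over the 4 libraries, in the authors' deposited table. Its log2 fold change of siMYBL2 over siCtrl was -3.47 (95% interval -3.83 to -3.10) in the authors' deposited table, which left 9.05% of the siCtrl level. MYBL1 and MYB were not called, with levels of 75.6% (adjusted p = 0.849) and 103% (adjusted p = 0.999) of siCtrl in the authors' deposited table.

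The authors' deposited table lists 13387 genes, of which 12081 are protein coding. A gene is called here where the authors' 2-sided Wald test has a Benjamini-Hochberg adjusted p under 0.05. By that rule 151 genes were called, or 1.13% of those listed. Of these, 112 were lower (0.837%) and 39 were higher (0.291%) after siMYBL2, while 1080 genes, 8.07%, had an unadjusted p under 0.05. The lower genes had a median log2 fold change of -0.75, or 59.4% of the siCtrl level, against a median of -0.02 over all listed genes. The higher genes had a median of 0.98. Changes past a halving or a doubling were few, with 31 lower genes under -1 and 19 higher genes over 1. The lower genes were the more abundant, with a median base mean of 1344 against 470 for the higher genes. The plot of fold change against base mean shows this, together with the wider scatter of rare genes.

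**Figure D1:**
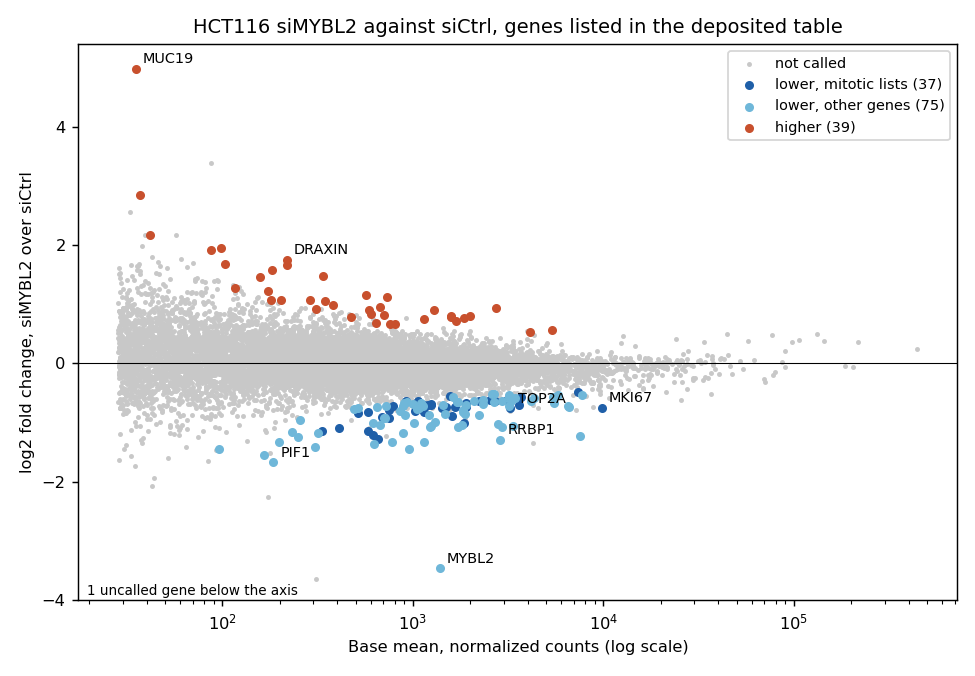
Log2 fold change of siMYBL2 over siCtrl (vertical axis) against base mean in normalized counts (horizontal axis, log scale), with 1 point for each gene in the authors' deposited table that lies inside the axes. Uncalled genes below the vertical axis are not shown (the lowest listed value is -8.43). The 37 lower genes of the mitotic lists and the other lower genes lie between -1.67 and -0.49, except MYBL2 at -3.47, and the 39 higher genes reach furthest at low base means.

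No values per library were analysed here, so every level is a group level with the standard error (SE) of the authors' model, and the spread between the 2 libraries of a group is not shown. Base means summed to 18873216 over the listed genes. The median SE was 0.54 for the 2095 genes with a base mean under 100 and 0.15 for the 1075 genes of at least 3000. At those errors a call needed a log2 fold change of 1.86 in the first class and 0.52 in the second. For 78.6% of listed genes the 95% interval lay inside -1 to 1. Of 21 epithelial and colon markers, 16 were listed, with base means between 38.7 and 34759, and 0 were called by the Wald test (4 at an unadjusted p under 0.05). CDX1, VIL1, LGALS4, CEACAM5 and CEACAM6 were the markers not listed. Of 14 blood cell markers only CD68 was listed, and its base mean was 49.5. Of 22 mesenchymal markers 9 were listed and 0 passed (2 at an unadjusted p under 0.05), and of 12 neural and muscle markers 6 were listed and 0 passed (0 at an unadjusted p under 0.05). Because this is bulk RNA, fewer cells in a stage of the cycle and less RNA per cell cannot be told apart.

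Of the 43 lower genes that were in any of the 29 lists, 37 were genes of mitosis. In 6 lists of genes for kinetochores, the spindle checkpoint, mitotic kinases, the anaphase-promoting complex, spindle and cytokinesis, and mitotic chromosomes, all 138 members were listed. Of these, 37 were lower (26.8%, against 0.837% of all listed genes), 0 were higher and 101 were not called. The lists were chosen with earlier results of these data known, so these shares are a description. The median of the 138 members was -0.36, and 129 of them had a value below 0, against 7088 of the 13387 listed genes. The 37 lower members had a median of -0.74, and their 95% intervals are drawn in the plot of the mitotic genes by role. They made up 33.0% of the 112 lower genes.

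Many of the lower mitotic genes hold the promoter elements named above. Promoter windows from RefSeq (GRCh38.p14, 250 bases before to 50 bases after the start of the transcript) were searched on both strands for the CHR (TTTGAA) and the CCAAT box (CCAAT). The stretch from 100 bases before to 30 bases after the start is printed for 6 lower mitotic genes. They have the lowest values among those with 1 window and both motifs in that stretch. CENPE, the lowest of all mitotic genes, held neither motif in its window. The coding strand is given from 5′ to 3′, with the matches to both motifs in capitals (a match on the other strand reads TTCAAA or ATTGG). SPC25, a subunit of the NDC80 complex that holds microtubules at the kinetochore, lies at chr2:168890401-168890530 on the reverse strand. CKS1B, a small partner of cyclin-dependent kinases, is at chr1:154974581-154974710 on the forward strand. DEPDC1B, a regulator of cell detachment at mitotic entry, is at chr5:60700137-60700266 on the reverse strand. GTSE1, a microtubule protein that also binds p53, is at chr22:46296770-46296899 on the forward strand. DLGAP5 (HURP), which stabilises kinetochore fibres, is at chr14:55191556-55191685 on the reverse strand. CDCA3, a trigger of mitotic entry, is at chr12:6851257-6851386 on the reverse strand.
SPC25: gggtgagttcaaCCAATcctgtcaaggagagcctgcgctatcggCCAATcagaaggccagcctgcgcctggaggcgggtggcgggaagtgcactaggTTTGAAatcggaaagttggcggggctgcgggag
CKS1B: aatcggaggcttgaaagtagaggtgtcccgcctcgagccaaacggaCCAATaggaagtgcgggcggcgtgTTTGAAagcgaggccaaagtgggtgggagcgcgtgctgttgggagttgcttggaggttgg
DEPDC1B: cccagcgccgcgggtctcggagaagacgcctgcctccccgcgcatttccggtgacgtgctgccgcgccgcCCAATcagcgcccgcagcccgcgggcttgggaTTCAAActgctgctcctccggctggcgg
GTSE1: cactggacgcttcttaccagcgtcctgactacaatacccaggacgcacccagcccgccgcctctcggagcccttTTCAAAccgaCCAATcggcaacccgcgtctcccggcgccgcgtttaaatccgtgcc
DLGAP5: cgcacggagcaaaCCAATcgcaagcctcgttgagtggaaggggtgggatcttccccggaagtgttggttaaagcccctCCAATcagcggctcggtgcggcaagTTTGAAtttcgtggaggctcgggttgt
CDCA3: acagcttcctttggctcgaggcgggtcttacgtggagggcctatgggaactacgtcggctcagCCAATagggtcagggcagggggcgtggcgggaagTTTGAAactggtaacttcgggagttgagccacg
In SPC25 and CDCA3 the CHR match begins 3 bases before the start site, and a CCAAT box lies upstream of it.

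Over all genes with a window, the CHR was more frequent in mitotic genes, called or not, than in other listed genes. It was present in 24 of the 32 lower mitotic genes with a RefSeq window (75%), against 1348 of 10175 listed genes with a window (13.2%) and 15.2% of all 35116 windows. Of the 24 genes, 18 had a match between 50 bases before and 50 bases after the start. Among lower genes outside the mitotic lists 15 of 59 (25.4%) held it, and among higher genes 2 of 23 (8.70%). Mitotic genes that were not called held it in 43 of 84 cases (51.2%). A CCAAT box was found in 28 of the 32 lower mitotic genes (87.5%), against 43.5% of listed genes. Both motifs stood together in 23 of the 32 (71.9%), against 7.38% of listed genes. The MYB core (AACNG) was in 84.4% of the lower mitotic genes and in 79.6% of listed genes, and the E2F sequence GGCGGGAA was in 18.8% against 6.50%. Genes with more than 1 start have more than 1 window; among genes with 1 window the CHR was in 82.1% of lower mitotic genes and 8.87% of listed genes. These are matches of letters, and binding was not measured.

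At the kinetochore and centromere, 5 of 33 members fell and 0 rose. CENPE, a kinesin that moves chromosomes to the metaphase plate, fell by 1.27 on the log2 scale to 41.5% of siCtrl in the authors' deposited table (SE 0.24, with a Wald adjusted p of 0.000109). CENPA, the histone H3 variant that marks centromeres, was left at 45.2% and its chaperone HJURP at 57.1% of siCtrl in the authors' deposited table. SPC25, whose promoter is printed above, was at 45.5% (adjusted p = 2.91e-05), and CENPF, a large coat protein of the outer kinetochore, at 67.8% in the authors' deposited table (adjusted p = 0.0340). The other 28 members ranged from -0.61 to 0.46 in log2 fold change and were not called. Of the spindle checkpoint and chromosomal passenger genes 2 of 11 fell, both from the passenger complex that corrects wrong attachments. The kinase AURKB and its scaffold INCENP were each at 61.2% of siCtrl in the authors' deposited table. The checkpoint kinase TTK was near the threshold at -0.60 (SE 0.18, adjusted p = 0.0536), and BUB1 (-0.36), MAD2L1 (-0.35) and TRIP13 (-0.36) were not called in the authors' deposited table.

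Among mitotic kinases and entry factors 6 of 21 members fell, and all 21 had a value below 0. The largest changes in the authors' deposited table were those of BORA, the activator of PLK1 by Aurora A, at 46.7% of siCtrl, and of CKS1B at 49.6% (adjusted p = 0.000459 and 0.000286). CCNF, an F-box cyclin that limits nucleotide supply in G2, was at 56.4% of siCtrl in the authors' deposited table. Cyclin B1 (CCNB1) was at 61.2% of siCtrl, its kinase CDK1 at 64.3% and the phosphatase CDC25B, which activates that kinase, at 64.3%, in the authors' deposited table. PLK1 stood at 70.1% of siCtrl (95% interval of log2 fold change -0.81 to -0.21, adjusted p = 0.0607) and AURKA at 82.6% (adjusted p = 0.739), neither called in the authors' deposited table. Of the anaphase-promoting complex and its substrates 2 of 21 fell. UBE2C, the ubiquitin-conjugating enzyme of the complex, was at 59.7% and the subunit ANAPC13 at 56.5% of siCtrl in the authors' deposited table. FBXO5 (-0.60, adjusted p = 0.0877), ESPL1 (-0.64, adjusted p = 0.115), UBE2S (-0.54) and PTTG1 (-0.39) were not called in the authors' deposited table.

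The kinesin, spindle and cytokinesis list held the highest share of lower genes among the 6, with 16 of 35 members (45.7%). All 35 values were below 0, with a median of -0.55. DEPDC1B led at 43.4% of siCtrl in the authors' deposited table (SE 0.20, adjusted p = 1.71e-06). GTSE1 stood at 52.9%, the microtubule protein PSRC1 at 53.5% and DLGAP5 at 53.8% of siCtrl in the authors' deposited table, each with an adjusted p of at most 0.00126. Of the genes that fell, the kinesins KIF20A and KIF23, the bundling protein PRC1 and CEP55 serve cytokinesis and were between 59.4% and 65.5% of siCtrl in the authors' deposited table. The microtubule depolymerase KIF2C was at 59.9% and KIF11, which pushes the spindle poles apart, at 62.0% of siCtrl in the authors' deposited table. HMMR, at 68.1%, was the smallest fall among the called members of this list (adjusted p = 0.0495). Of the condensin and mitotic chromosome list 6 of 17 fell. TOP2A, which untangles sister DNA, and MKI67, the proliferation marker Ki-67, were at 59.1% and 59.4% of siCtrl in the authors' deposited table. NCAPG, a condensin subunit, was at 65.2%, CDCA3 at 56.0%, CDCA2 at 64.1% and HMGB2 at 71.2% of siCtrl in the authors' deposited table. HMGB2 had the smallest change of all called genes, at -0.49 (SE 0.14, adjusted p = 0.0468).

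**Figure D2:**
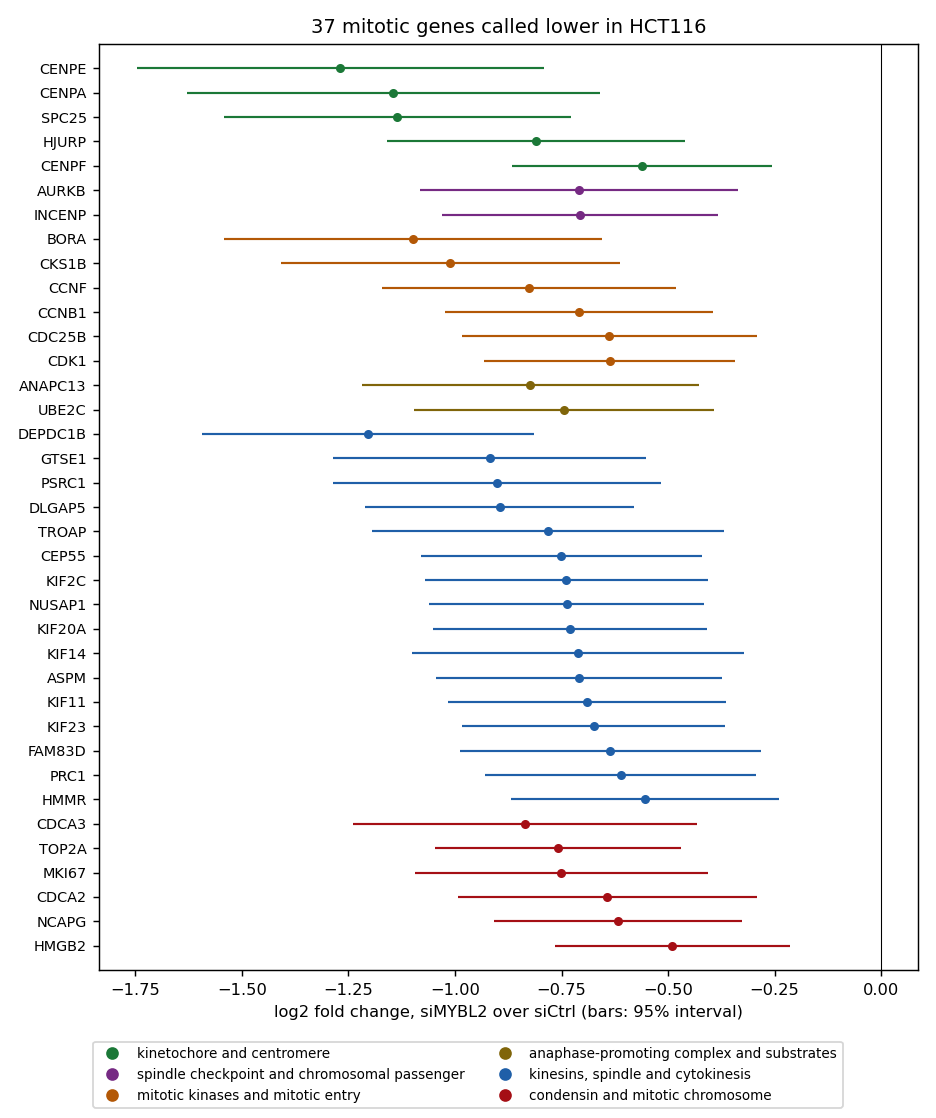
Log2 fold change of siMYBL2 over siCtrl (horizontal axis) with its 95% interval for the 37 mitotic genes called lower in the authors' deposited table, coloured by list. Values run from -1.27 for CENPE to -0.49 for HMGB2, and the intervals of most genes overlap.

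Genes of the other phases of the cycle gave fewer calls, to be read beside the 1.13% called over all listed genes. None of the 13 MuvB and DREAM subunits was called by the Wald test (0 at an unadjusted p under 0.05), and their values lay between -0.34 and 0.12. FOXM1, the partner of MYBL2 at mitotic promoters, was at 88.0% of siCtrl (adjusted p = 0.979), and LIN9, a MuvB subunit, was at -0.33 in the authors' deposited table (adjusted p = 0.966). Of 37 genes of replication origins and forks 0 were called and 5 had an unadjusted p under 0.05. Their median was -0.22, and 35 of the 37 lay below 0. TICRR, which starts origin firing, was lowest at -0.60 in the authors' deposited table (adjusted p = 0.137). Of 20 genes for nucleotide supply, chromatin assembly and E2F function 2 fell. UHRF1, which keeps DNA methylation through replication, was at 64.2% and the ribonucleotide reductase subunit RRM2 at 69.4% of siCtrl in the authors' deposited table. In homologous recombination and the Fanconi pathway 0 of 19 were called, with 2 at an unadjusted p under 0.05, and POLQ was lowest at -0.67 in the authors' deposited table (adjusted p = 0.119).

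Among G1 cyclins, kinases and inhibitors 1 of 13 changed. That was CDKN1A, the inhibitor p21 and a p53 target, which rose 1.48-fold in the authors' deposited table (log2 fold change 0.57, SE 0.15, adjusted p = 0.0230). Of 32 listed p53 targets 2 rose, beside 0.291% of all listed genes, and 30 were not called. Their median was 0.24, with 26 of 32 values above 0. The second was BTG2, an antiproliferative gene, at 1.87-fold in the authors' deposited table (SE 0.22, adjusted p = 0.00494). ZMAT3 (0.68, adjusted p = 0.313) and the cell death gene BBC3, or PUMA (0.47, adjusted p = 0.453), were not called in the authors' deposited table. The strip plot of 27 lists shows these values. Other lists also had most values above 0, with 24 of 28 interferon-stimulated genes (median 0.18) and 8 of 9 mesenchymal markers (median 0.38), and no shift of a list was tested.

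**Figure D3:**
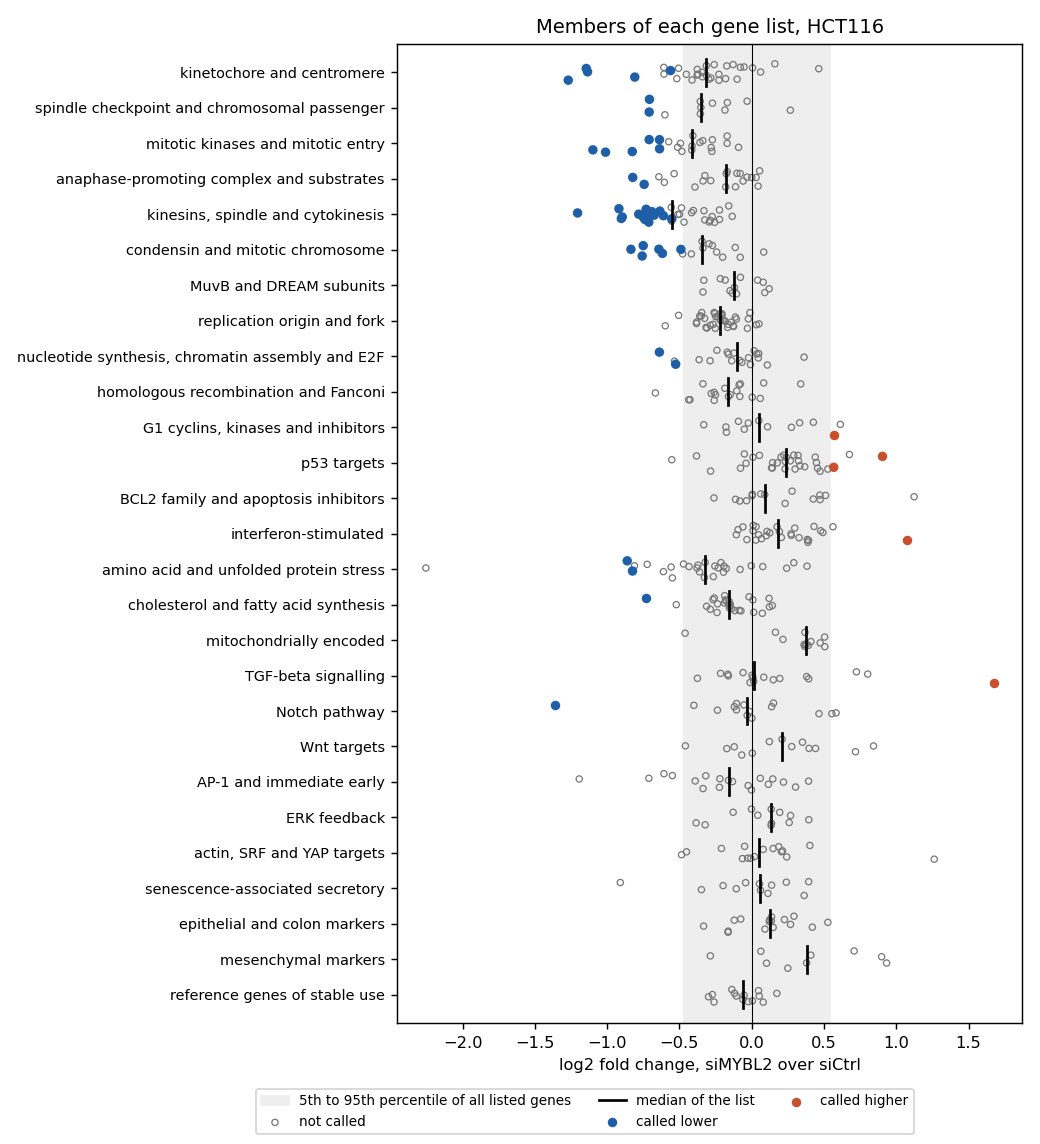
Log2 fold change of siMYBL2 over siCtrl (horizontal axis) for each listed member of 27 gene lists (rows), with called members filled, uncalled members open, list medians as black bars and the 5th to 95th percentile of all listed genes shaded. The medians run from -0.55 for kinesins, spindle and cytokinesis to 0.38 for mesenchymal markers.

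Outside the cell cycle at most 2 members of any list were called. Over all listed genes 0.837% were called lower and 0.291% higher. In amino acid and unfolded protein stress 2 of 28 fell, ASNS (asparagine synthetase) to 55.0% and the arginine and lysine transporter SLC7A1 to 56.5% of siCtrl in the authors' deposited table. The median of that list was -0.33, and 24 of 28 values lay below 0. Before adjustment 9 of the 28 were lower at p under 0.05, against 630 of all 13387 listed genes. The 3′ UTRs of SLC7A1, and of NUMB below, hold the sequence CCTTACA described further on. NUMB, which restrains Notch, was the 1 of 15 Notch genes called, at 38.9% of siCtrl in the authors' deposited table (SE 0.20, adjusted p = 7.50e-09). SMAD7, which blocks TGF-beta receptors, rose 3.19-fold in the authors' deposited table (base mean 103, SE 0.48, adjusted p = 0.0455). It was the 1 of 17 TGF-beta genes called. The 1 of 28 interferon-stimulated genes called was DDX58 (RIG-I), a sensor of viral RNA, which rose 2.10-fold in the authors' deposited table (SE 0.29, adjusted p = 0.0292). Of 13 mitochondrially encoded genes 0 were called by the Wald test, although 8 had p under 0.05 before adjustment, 7 of them higher. Their median was 0.37, 12 of the 13 lay above 0, and MT-ND5 was nearest to the threshold in the authors' deposited table (0.50, adjusted p = 0.0526). The part of this shift in the other results was not tested. The lists for apoptosis (15 listed genes), Wnt targets (13), AP-1 (19), ERK feedback (12), actin and YAP (16), senescence-associated secretion (12) and stable reference genes (14) had 0 called members, with between 0 and 2 members of each at an unadjusted p under 0.05. With 1.13% of all listed genes called, 0 calls in lists of these sizes says little about them.

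The lower genes with the largest changes lay mostly outside the mitotic lists. Above a base mean of 100, the lowest after MYBL2 was PIF1, a helicase that unwinds G-quadruplex DNA, at 31.5% of siCtrl in the authors' deposited table (SE 0.31, adjusted p = 3.68e-05). Its promoter holds a CHR beginning 20 bases before the start. ZNF468, a zinc finger gene from a cluster of close paralogs on chromosome 19, was at 34.3%, and SLAIN2, which promotes microtubule growth, at 36.8% of siCtrl in the authors' deposited table. The tetraspanin TSPAN9 was at 37.7% and the iron regulator HFE at 39.7% of siCtrl in the authors' deposited table. CERK, the ceramide kinase, was also at 39.7% in the authors' deposited table (adjusted p = 2.53e-11). VANGL1, of the planar cell polarity pathway, was at 40.0% and RRBP1, a ribosome-binding protein of the endoplasmic reticulum, at 41.0% of siCtrl in the authors' deposited table. MXD3, a MAX partner, was at 42.2%, the hydroxylase ASPH at 42.6% and SPR, which makes tetrahydrobiopterin, at 44.4% of siCtrl in the authors' deposited table. FAM72D, at 44.5% in the authors' deposited table, has near-identical copies, so its own level is uncertain.

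Several lower genes of smaller change were abundant and had small errors. LAMP1, a main lysosomal membrane protein, was at 47.6% of siCtrl with a base mean of 2944, and LIPA, the lysosomal acid lipase, was at 48.8%, in the authors' deposited table. HLTF, a translocase of stalled replication forks, was at 47.3% of siCtrl in the authors' deposited table (SE 0.16, adjusted p = 1.35e-08). The kinase UHMK1 (48.0%), the nucleotide kinase CMPK1 (48.6%), the death-associated protein DAP (48.1%) and the phosphatase PTP4A1 (49.4%) had similar levels in the authors' deposited table. Some lower genes have known mitotic roles although they are in no list. PRR11 was at 58.3%, PIMREG at 52.9%, the spindle orientation gene GPSM2 at 63.6% and RCC2, which guides the passenger complex, at 64.1% of siCtrl in the authors' deposited table.

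A short sequence was present in the 3′ UTRs of some lower genes outside the mitotic lists. All 16384 words of 7 bases were ranked over 10720 genes. The ranking used the mean Wald statistic, adjusted for UTR length, of the genes whose 3′ UTR held the word. This mean was scaled by the spread of the statistic and by the number of genes with the word, so that common words weighed more. The word CCTTACA ranked first for lower values, and the next, CTTACAA and GCCTTAC, overlap it. Since the same fold changes chose the word, its shares among the HCT116 genes are a description. It was present in 30 of 73 lower genes outside the mitotic lists (41.1%), in 2 of 37 lower mitotic genes (5.41%, CENPE and ANAPC13), in 2 of 37 higher genes (5.41%) and in 8.63% of all 11942 genes searched. UTR length differed between these groups. The median was 2210 bases for the lower genes outside the mitotic lists, 794 bases for the lower mitotic genes, 1566 bases for the higher genes and 1376 bases over all genes searched, and it was 3293 bases for all genes with the word. The part of length in the shares was not tested beyond the adjustment of the ranking. The site and 10 bases on each side, with the word in capitals, are printed for 3 of the lower genes with the largest changes (GENCODE 29 transcripts on GRCh38, 5′ to 3′ along the transcript). They lie at chr4:48423239-48423265 on the forward strand for SLAIN2, chr12:3283597-3283623 on the forward strand for TSPAN9 and chr14:73276300-73276326 on the reverse strand for NUMB.
SLAIN2: ttagattctgCCTTACAtcaatttttg
TSPAN9: gctttttataCCTTACAatgtaacttt
NUMB: tcccttacccCCTTACAaatctctggc
LAMP1, RRBP1, VANGL1, DAP, LIPA, HLTF, ASPH, SPR and CERK also held the word. The U2OS libraries, which took no part in the ranking, gave 90 of 429 lower genes with the word (21.0%), against 8.79% of all 11317 genes searched in that line. Here, in the double knockdown and after siMYBL1, the search covered only genes that were also listed for HCT116 siMYBL2. Among the 343 genes lower in U2OS and not lower in HCT116 the share was 18.1%. In the HCT116 double knockdown it was 14.8% of the lower genes and 11.3% of the 424 that were not lower after siMYBL2, against 8.68% of all. After siMYBL1, where few genes changed, 3 of 23 lower genes (13.0%) and 2 of 10 higher genes held it. Both of these comparisons use the siCtrl libraries of the siMYBL2 comparison. Small RNAs can also lower transcripts through pairing of their seed with a 3′ UTR. The sequence of the siMYBL2 siRNA is not given in the sources used here, and the part of such pairing in these values was not tested.

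The lower genes were also sorted by the promoter CHR and the 3′ UTR word. Over all genes, the CHR was in 13.2% of those with a window and the word in 8.63% of those searched. How many of all listed genes held both was not counted, so the sizes of the classes are a description. Of the 91 lower genes with both regions known, MYBL2 left out, 33 had the CHR alone, of which 24 were mitotic. The word alone was in 18 genes, both were in 6 (GRIN2B, HLTF, LIPA, PTP4A1, RDH11 and ZNF845) and neither was in 34. In HCT116 after siMYBL2 the medians were -0.75 for the CHR alone, -0.82 for the word alone, -1.03 for both and -0.72 for neither. In the HCT116 double knockdown, which shares its siCtrl libraries with this comparison, the medians of the same genes were -1.80 for the CHR alone, -0.89 for the word alone, -1.04 for both and -0.83 for neither (6.95% of all listed genes were called in that comparison). In U2OS after siMYBL2 they were -0.87 for the CHR alone, -1.002 for the word alone, -1.77 for both and -0.88 for neither. Among lower mitotic genes the double knockdown medians were low with and without a CHR, at -1.91 for CHR and CCAAT box (23 genes), -1.95 for the CCAAT box alone (5 genes) and -1.81 for neither (3 genes), against -0.75, -0.71 and -0.82 after siMYBL2. Lower genes outside the mitotic lists with both motifs (14 genes) had medians of -1.04 in the double knockdown and -0.89 after siMYBL2. Differences between these classes were not tested. DLGAP5 stood at -2.59 in the double knockdown and -0.90 after siMYBL2, and TOP2A at -2.45 and -0.76, in the authors' deposited tables. SLAIN2, with the word and no CHR, stood at -0.82 in the double knockdown and -1.44 after siMYBL2 in the authors' deposited tables. It is not typical of its class. The value was lower in the double knockdown than after siMYBL2 for 10 of 18 genes with the word alone. The same held for 32 of 33 with the CHR alone, 2 of 6 with both and 18 of 34 with neither. After siMYBL1 alone the medians were -0.16 for the CHR alone, -0.04 for the word alone, -0.10 for both and -0.06 for neither.

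**Figure D4:**
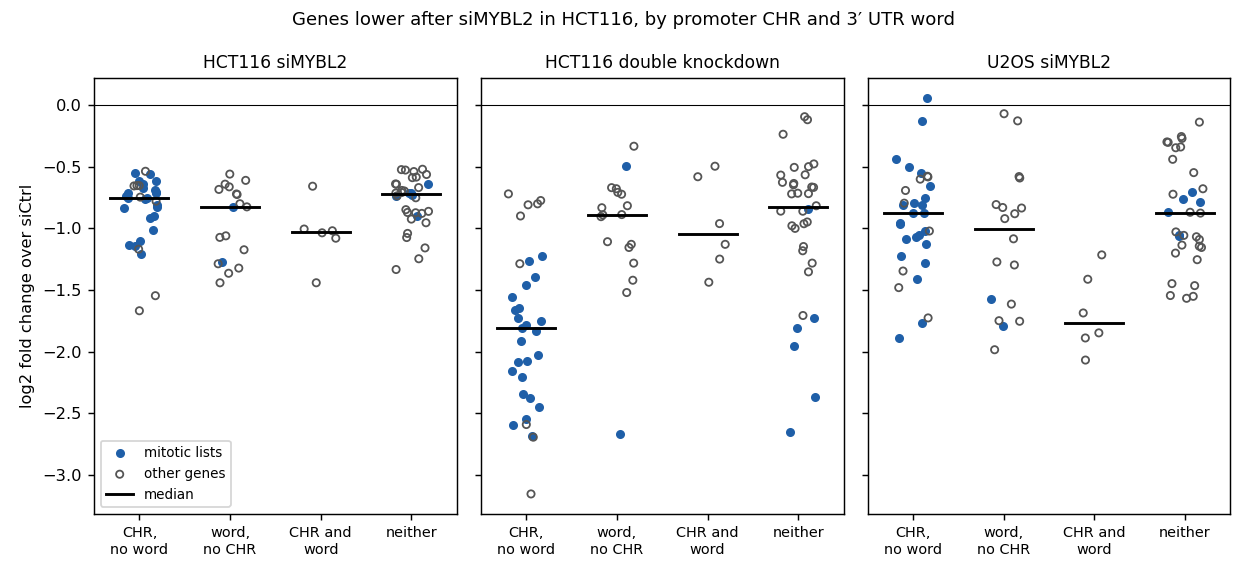
Log2 fold change over siCtrl (vertical axis) of the 91 lower genes by class of promoter CHR and 3′ UTR word, in HCT116 siMYBL2, the HCT116 double knockdown and U2OS siMYBL2 (panels), with filled points for mitotic lists, open points for other genes and bars for medians. The CHR class has a median of -0.75 after siMYBL2 and -1.80 in the double knockdown, while the class with the word alone has -0.82 and -0.89. In the double knockdown panel most filled points are also low in the class with neither feature.

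The higher genes were fewer and rarer, and 4 of the 39 were in any list. DRAXIN, a guidance protein that inhibits Wnt signalling, rose 3.38-fold in the authors' deposited table (base mean 217, SE 0.39, adjusted p = 0.00174). PADI3, a deiminase that turns arginine into citrulline, rose 3.18-fold and PRF1, or perforin, 2.99-fold in the authors' deposited table. An lncRNA, ENSG00000275496 on chromosome 21, rose 2.80-fold, and METTL7A 2.76-fold, in the authors' deposited table. KISS1R, the kisspeptin receptor, was at 2.42-fold, STOX2 at 2.34-fold and SYTL2, of vesicle traffic, at 2.23-fold of siCtrl in the authors' deposited table. UTRN, or utrophin, a cytoskeletal linker related to dystrophin, rose 2.18-fold in the authors' deposited table, with a small error (SE 0.20, adjusted p = 8.24e-06). SYNE1, THSD4, the water channel AQP3, the copper chaperone ATOX1 and ITGA2 lay between 1.91-fold and 2.11-fold in the authors' deposited table. Of the 39 higher genes 37 were listed in the HCT116 double knockdown, which shares its siCtrl libraries, and 36 lay above 0 there. Of the 37, 24 were called higher there, against 361 of the 12873 genes listed in both comparisons. Of the 112 lower genes 99, the target MYBL2 among them, were called lower there, against 531 of the 12873 genes listed in both comparisons. METTL7A (-0.18), KISS1R (0.18) and PADI3 (0.41) were among those not called there.

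Other higher genes included some known from epithelia. CGN, a tight junction protein, rose 1.76-fold, EVPL (envoplakin) 1.69-fold and MLPH 1.68-fold in the authors' deposited table. NT5E, which makes adenosine outside the cell, rose 1.75-fold and the secreted protease KLK6 1.59-fold in the authors' deposited table. These genes were named after their values were seen. The list of epithelial markers had 0 called members and a median of 0.13, and the list of mesenchymal markers had 0 and a median of 0.38. Of the higher genes 5 had a base mean under 100, where a call rests on few counts. MUC19, a gel-forming mucin gene, had the largest value of the table at 4.98 (SE 1.09) with a base mean of 35.0, and stood at 7.19 in the double knockdown and 6.02 after siMYBL1, in the authors' deposited tables. These 3 comparisons share their siCtrl libraries.

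Some genes called after siMYBL2 were also called after siMYBL1, again with shared siCtrl libraries (0.26% of genes listed for siMYBL1 were called). RCC2 was at -0.64 after siMYBL2 and -0.99 after siMYBL1, and PLEKHA3 at 0.78 and 0.87, in the authors' deposited tables. LRRK1 was at -0.67 after siMYBL2 and 0.78 after siMYBL1, HHLA1 at -0.77 and 0.81, and the lncRNA ENSG00000275216 at -0.64 and 0.77, in the authors' deposited tables. In the double knockdown the values of these 3 genes were -0.12, -0.20 and -0.01, none of them called, in the authors' deposited tables.

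U2OS cells gave the same direction for nearly all lower genes. Of the 112 lower genes in HCT116, 111 were listed in U2OS, 110 had a value below 0 there and 88 were called lower (79.3%, against 3.51% of the genes listed in U2OS). They make up 16.2% of the 543 genes lower in U2OS. Of the mitotic genes 31 of 37 were called lower there, and of the other genes, MYBL2 among them, 57 of 74. Of the 39 higher genes 32 were listed in U2OS, 27 had a value above 0 and 5 were called higher (15.6%, against 1.69% of the genes listed), or 1.91% of the 262 genes higher in U2OS. These 5 were DRAXIN, ITGA2, GPRC5A, VGF and HOXA10. Of all 138 mitotic list members 52 were lower in U2OS and 37 in HCT116, with medians of -0.41 and -0.36. The 2 lines were compared directly by the difference of their log2 fold changes over the combined SE. With Benjamini-Hochberg adjustment over 12566 genes listed in both tables, 27 differed (0.215%), and 5 of these were called in HCT116.

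**Figure D5:**
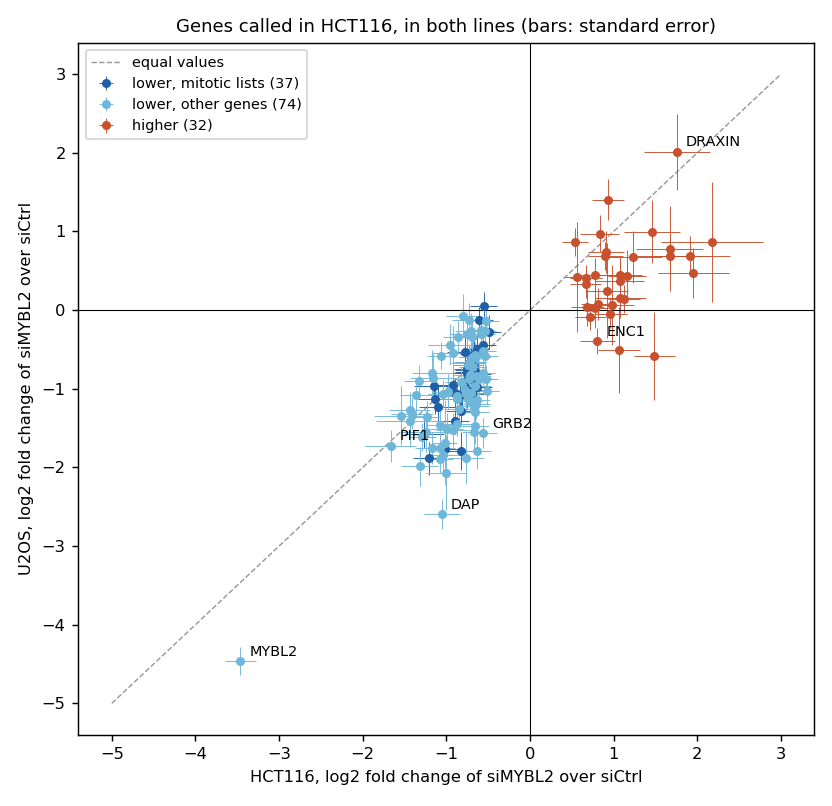
Log2 fold change of siMYBL2 over siCtrl in HCT116 (horizontal axis) and U2OS (vertical axis) for the 111 lower and 32 higher genes called in HCT116 and listed in both tables, with bars of 1 SE. Of the 111 lower genes 110 lie below 0 in U2OS, while the 32 higher genes spread around smaller values, with 27 above 0.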

How the data were processed

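Cutadapt 4.4, Salmon 1.10.1, DESeq2 1.40 and the build hg38 are named in the submitters' processing notes, with no order or settings, and no source used here gives the annotation. The authors deposited 1 results table for each knockdown against siCtrl. Per the file headers, each gene has a deposited base mean (a signal, in normalized counts averaged over 4 libraries). The deposited fold changes and their standard errors are log2 values. Dividing them gave the deposited score, the Wald statistic. The deposited p-values matched a normal 2-sided test of it, and the authors' adjusted p-values matched Benjamini-Hochberg over the genes listed.

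The depth of each library is unknown here, and counts could not be fitted again. Intervals are the log2 fold change plus or minus 1.96 SE. The p-values rest only on the SE of the authors' model for these libraries, whose cultures are not described further. The HCT116 minus U2OS difference used a normal 2-sided p. The members and the 29 gene lists were chosen with earlier results of these data known. The rule for named genes took MYB, MYBL1, MYBL2, CDK1, CCNB1, PLK1, AURKA, TOP2A, FOXM1 and CDKN1A, any called gene, the 15 lower and 15 higher with the largest change at a base mean of at least 100, and up to 6 members of each list by adjusted p. Promoters matched 10186 listed genes (RefSeq, GRCh38.p14), and 3′ UTRs, the longest of each gene, 11943 (GENCODE 29). Python 3.11.15, pandas 2.3.3 and scipy 1.17.1 were used, and the calculations were tested on simulated data. A few genes and 1 list named by this rule are not reported here.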

Additional observations from a re-analysis of the deposited data

Results flagged for a closer look

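For 5 genes called in HCT116 the response to siMYBL2 differed between the lines by the test of the difference (HCT116 minus U2OS, Benjamini-Hochberg over 12566 genes). DAP, a death-associated protein, was at -1.05 in HCT116 and -2.59 in U2OS, a difference of 1.54. ENC1, an actin-binding protein, rose in HCT116 (0.80) and was at -0.39 in U2OS, where it was not called (adjusted p = 0.179), a difference of 1.197. GRB2, the adaptor of growth factor receptors, was at -0.56 in HCT116 and -1.57 in U2OS, a difference of 1.004. The lncRNA ENSG00000275216 was at -0.64 in HCT116 and -1.79 in U2OS, a difference of 1.155. The target MYBL2 was at -3.47 in HCT116 and -4.47 in U2OS, a difference of 0.9999 (adjusted p = 0.0493), so its level relative to siCtrl was lower in U2OS than in HCT116. The part of this unequal knockdown in the other differences was not tested.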

How the results depend on the processing

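The direction was the same under each alternative for the called genes and the always named ones where they were tested. Among genes without the 3′ UTR word, 118 of these genes were tested, MYBL2 apart. Other uncalled genes were not run. Only the centring on the median of all genes (-0.02) altered the fold changes themselves. A called gene could therefore not change direction, and the stable direction is no check of the results. The 151 calls (112 lower, 39 higher) became 88 (68 lower, 20 higher) at an adjusted p under 0.01, 76 (59 lower, 17 higher) with Benjamini-Yekutieli adjustment, and 28 (23 lower, 5 higher) when tested against a change of at most 0.25. At a threshold of 0.1 the higher genes were 63, and 8 in place of 5 higher genes were also called in U2OS. Among the 10912 genes without the 3′ UTR word, 74 were lower; fewer genes were tested and those with the word were left out. The 37 lower mitotic genes were 21 with Benjamini-Yekutieli adjustment and 4 against a change of at most 0.25. With a base mean of at least 100 there were 166 calls, and after centring on the median of all genes (-0.02) there were 148, of which 141 were shared. MYBL2 was at -3.47, or -3.45 after the centring, which alone could move it. Counts for single lists moved more. With Benjamini-Yekutieli adjustment the lower members were 9 of the kinesin, spindle and cytokinesis list, 2 of the condensin list and 0 of the anaphase-promoting complex list, and 1 p53 target was higher. Against a change of at most 0.25 there were 2 lower members in the kinetochore list and 2 in the kinesin list, 0 in the other mitotic lists, and 0 higher p53 targets. No paired analysis was possible because the tables hold no values per library, and for the same reason no library was left out in turn. Low base means limit what can be called, as given above.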
